A study of Homo sapiens with 12 samples.

Results

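The genes described here set the pace of the G1 phase of the cell cycle: the D-type cyclins CCND1, CCND2 and CCND3, their kinase partners CDK4 and CDK6, the CDK inhibitors CDKN1B, CDKN1C, CDKN2C and CDKN2D, and RB1, the protein that these kinases phosphorylate. They were taken by name, 10 genes in all, and each was read from the probe set annotated with its symbol alone. Of the 10 genes, 9 had such a probe set, 1 each, among 18404 named genes. CDKN2C has none in the annotation used, so its expression was not analysed, and only the bases before its RefSeq starts are described below. The gene names were chosen with earlier results of these arrays known.

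Total RNA was measured on 12 arrays from A375 and A2058, established human melanoma lines whose labels give BRAF V600E for both. The 4 groups, with 3 arrays each, were A375 with vemurafenib, A375 with DMSO, A2058 with vemurafenib and A2058 with DMSO. Vemurafenib blocks the mutant BRAF kinase; control cells got the same volume of DMSO, the solvent. The label text gives 1 µM vemurafenib for 72 h in all, renewed every 24 h, but mentions only A375p cells; the A2058 samples carry the same text, and whether their dose and time were equal is not stated apart from it. All groups grew in serum-supplemented DMEM. The labels do not say whether the 3 arrays of a group came from separate cultures, so p-values measure the spread between these arrays, which may be technical.

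D cyclins are made in response to growth factor signals, among them the RAS, RAF, MEK and ERK cascade that mutant BRAF keeps active. A D cyclin bound to CDK4 or CDK6 phosphorylates RB1, which then releases E2F transcription factors to switch on the genes of DNA replication. INK4 inhibitors such as CDKN2C and CDKN2D bind CDK4 and CDK6 themselves, whereas the KIP family members CDKN1B and CDKN1C bind cyclin-CDK complexes, above all those of CDK2.

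The values are the deposited log2 expression values, so a difference of 1 is a 2-fold change, and values near the lower end of the scale (lowest 3.24) change little with a true change in RNA. Differences below are between group means, ± the standard error of 1 limma fit to all 12 arrays. A gene was called at a Benjamini-Hochberg adjusted p under 0.05 over all 18404 genes. The fit takes 1 spread per gene for all groups, so both lines share a standard error. The groups were not equally spread: the median SD of a gene was 0.0866 in A375 with vemurafenib and 0.0461 to 0.0591 in the others. Arrays of a group correlated at r = 0.9978 to 0.9989 across genes in 3 groups. The exception was A375 vemurafenib replicate 1, with r = 0.9939 and 0.9941 and the smallest weight, 0.149, when arrays were weighted by their fit. Calls of the 9 measured genes that turn on it are given without it too. The melanocyte lineage gene SOX10 averaged 9.38 with vemurafenib and 9.53 with DMSO in A375, and 9.48 and 9.21 in A2058. The pigment cell gene MLANA averaged 4.54 and 4.44 in A375, and 7.08 and 4.75 in A2058. Other pigment cell genes were higher in A2058 under both treatments. TYR averaged 4.57 and 4.57 in A375, and 11.38 and 10.93 in A2058. PMEL averaged 5.07 and 4.99, and 10.88 and 8.45. TYRP1 averaged 5.30 and 4.92, and 9.33 and 6.06. The 4 measured immune markers had mean log2 values of 4.75 to 4.87 on every array, and group means of the epithelial markers EPCAM and CDH1 were 4.48 to 4.57. Summed linear levels of 4 marker lists moved with treatment in at least 1 line. For 7 melanocyte markers the sum was 2716 to 2785 with vemurafenib and 1821 to 1909 with DMSO in A375, and 9501 to 9694 and 5739 to 6043 in A2058. For 5 epithelial markers it was 453 to 520 and 1303 to 1412 in A375, and 253 to 316 and 563 to 627 in A2058, and KRT18 was the marker that moved most, at 8.48 and 10.26 in A375 and 7.46 and 8.87 in A2058. For 6 fibroblast markers it was 319 to 347 and 234 to 251 in A375, and 294 to 309 and 314 to 326 in A2058. Of these, LUM moved most, at 6.37 and 4.22 in A375 and 6.47 and 6.88 in A2058, while COL1A1 averaged 6.18 and 6.20 in A375. For 4 endothelial markers it was 182 to 203 and 196 to 208 in A375, which overlapped, and 113 to 116 and 128 to 138 in A2058, where KDR averaged 5.06 and 5.70. The part of these markers in the results was not tested.

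Vemurafenib left most of the 9 measured genes close to their DMSO level and moved a few by a large amount. CCND1 and CDK6, which form the cyclin D1-CDK6 complex, fell in both lines. CDKN1B, which encodes the inhibitor p27, rose in both. CCND3 rose in A375 alone among the calls, and CDK4 rose by a small amount in A2058. In A375, 4 of 9 genes were called, where 37.0% of all genes were; 2 were higher (17.7% of all genes) and 2 lower (19.3%). In A2058, again 4 of 9 were called, where 27.1% of all genes were; 2 were higher (14.6%) and 2 lower (12.5%). The difference between the responses was called for 4 of 9, against 29.5% of all genes, 2 with a positive sign (13.1%) and 2 with a negative sign (16.4%). Without A375 vemurafenib replicate 1 these counts were 5 of 9 in A375, with CDKN1C as the added fall, where 42.3% of all genes were called, and 4 of 9 in A2058, where 32.3% were.

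**Figure D1:**
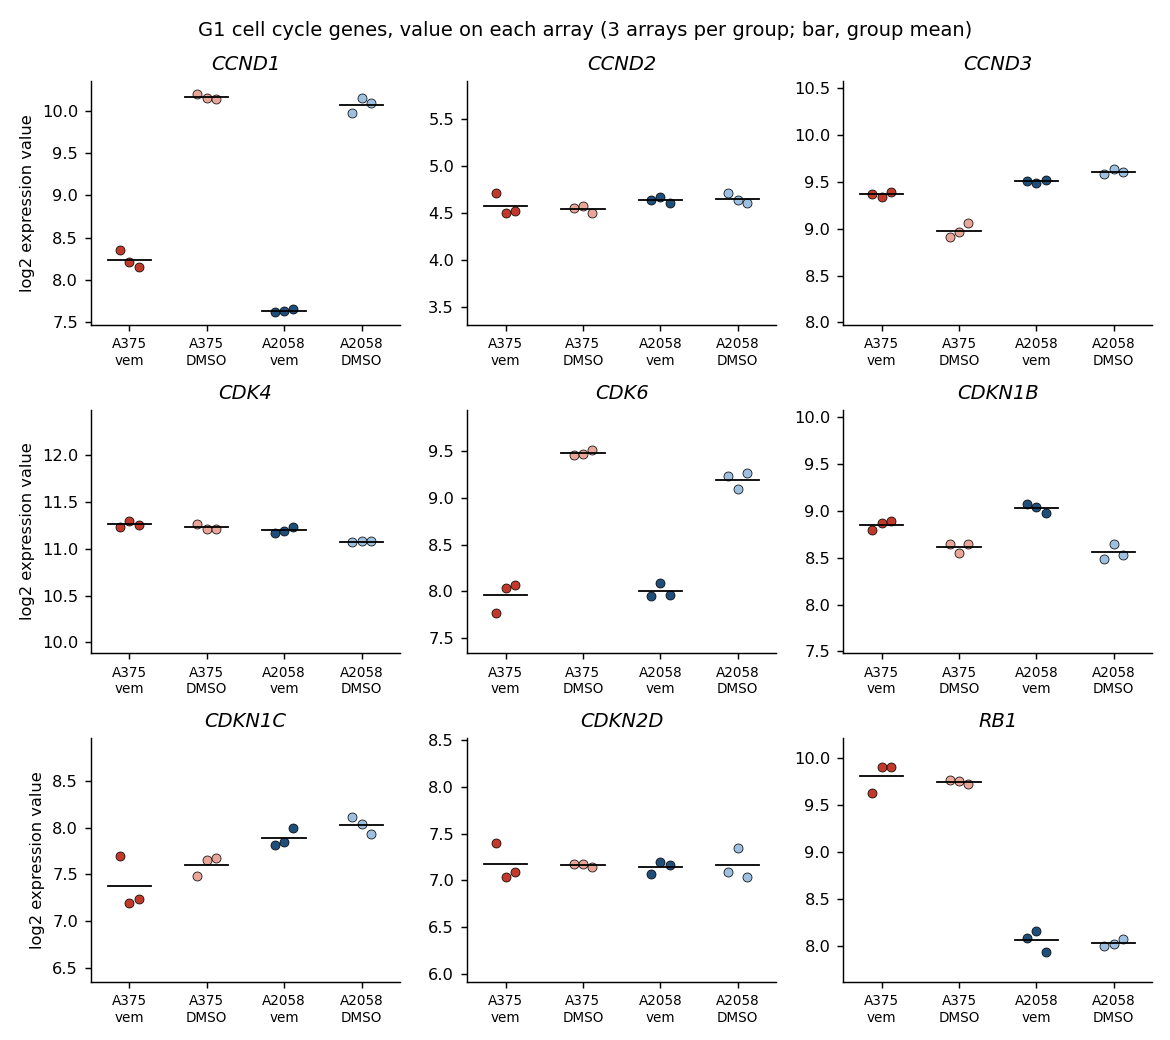
The log2 expression value (vertical axis, a different range in each panel but never under 2.6 log2 units high) of each of the 9 measured genes is plotted for every array, with 3 arrays per group and a bar at the group mean. CCND1 and CDK6 lie far lower on all vemurafenib arrays than on all DMSO arrays of both lines, RB1 separates the lines and not the treatments, and the treatments overlap within each line for CCND2 and CDKN2D.

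**Figure D2:**
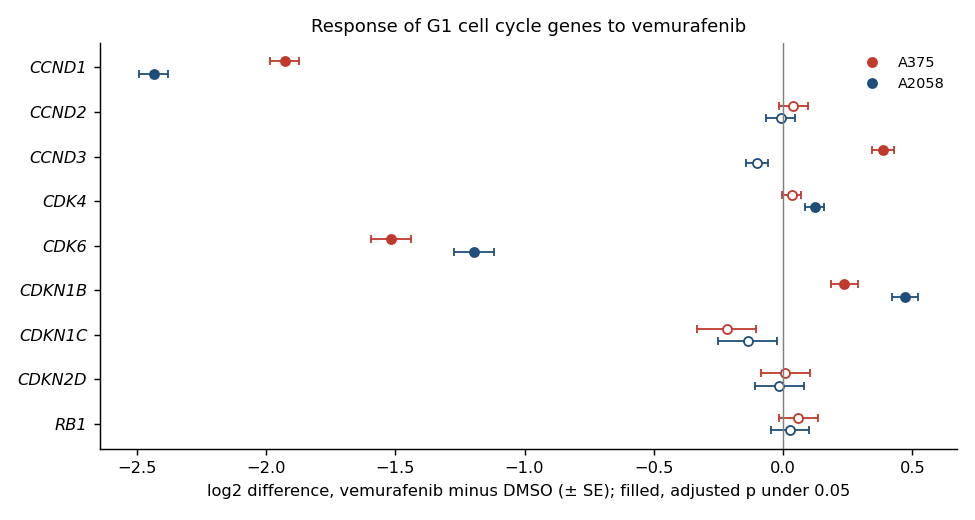
The log2 difference, vemurafenib minus DMSO (horizontal axis, ± SE from the limma fit), is shown for each gene in A375 and A2058, with filled points for an adjusted p under 0.05. CCND1 (-1.93 in A375 and -2.43 in A2058) and CDK6 (-1.52 and -1.19) stand far to the left of the other genes.

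CCND1 encodes cyclin D1, the D cyclin best known as an output of ERK signalling. Its values were 8.35, 8.21 and 8.15 with vemurafenib in A375, against 10.20, 10.15 and 10.14 with DMSO. In A2058 they were 7.62, 7.63 and 7.66 with vemurafenib, against 9.97, 10.15 and 10.09 with DMSO. Each vemurafenib array lay below each DMSO array of either line, and the DMSO arrays of the lines overlapped. The log2 difference was -1.93 ± 0.057 in A375, 3.8-fold lower (adjusted p = 3.22e-11), and -2.43 ± 0.057 in A2058, 5.4-fold lower (adjusted p = 1.31e-11). The A2058 fall was the larger: the responses, A375 minus A2058, differed by 0.51 ± 0.081 (adjusted p = 0.000357). In RNA from whole cultures, fewer cells expressing a gene and less RNA of it per cell cannot be told apart.

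CCND3 encodes cyclin D3, which binds the same kinases. Its values were 9.37, 9.34 and 9.39 with vemurafenib in A375, against 8.91, 8.97 and 9.06 with DMSO. In A2058 they were 9.51, 9.49 and 9.52 with vemurafenib, against 9.58, 9.64 and 9.60 with DMSO. The vemurafenib arrays thus lay above the DMSO arrays in A375 and slightly below them in A2058, with no overlap in either line. The rise in A375 was 0.39 ± 0.043, 1.31-fold (adjusted p = 8.82e-06), and the A2058 difference of -0.10 ± 0.043 was not called (adjusted p = 0.107, with a 95% interval of -0.194 to -0.009). The difference between the responses was itself called, at 0.49 ± 0.060 (adjusted p = 4.16e-05).

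CCND2, the gene of cyclin D2, lay near the lower end of the scale on every array, from 4.50 to 4.71 over the 6 A375 arrays and from 4.60 to 4.71 over the 6 A2058 arrays. Vemurafenib and DMSO arrays overlapped within each line, while the A375 DMSO arrays lay below all A2058 arrays. Neither response was called: 0.039 ± 0.056 in A375 (adjusted p = 0.687) and -0.0094 ± 0.056 in A2058 (adjusted p = 0.952). The 95% intervals were -0.083 to 0.16 and -0.131 to 0.112. At so low a level a change in RNA would be compressed.

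CDK6 and CDK4 encode the kinases that D cyclins activate. CDK6 stood at 7.77, 8.04 and 8.07 with vemurafenib in A375, against 9.45, 9.47 and 9.51 with DMSO. In A2058 its values were 7.95, 8.09 and 7.96 with vemurafenib, against 9.23, 9.09 and 9.26 with DMSO. No vemurafenib array reached a DMSO array in either line. The CDK6 difference was -1.52 ± 0.076 in A375, 2.86-fold lower (adjusted p = 5.15e-09), and -1.19 ± 0.076 in A2058, 2.29-fold lower (adjusted p = 1.13e-07). The A375 fall was the larger by the fit to all arrays (-0.32 ± 0.11, adjusted p = 0.0399). That call was lost without any 1 of the 3 A375 DMSO arrays, A2058 DMSO replicate 1 or 2, or any A2058 vemurafenib array, with differences of -0.35 to -0.27 and adjusted p of 0.05 to 0.102.

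CDK4 hardly moved. It had 11.23, 11.30 and 11.25 with vemurafenib in A375, against 11.26, 11.21 and 11.21 with DMSO, and these overlapped (0.033 ± 0.0365, adjusted p = 0.574). In A2058 it had 11.17, 11.19 and 11.23 with vemurafenib, against 11.07, 11.08 and 11.08 with DMSO, which did not overlap, a rise of 0.12 ± 0.0365 or 1.09-fold (adjusted p = 0.0253). This small call was lost without any 1 of the A2058 DMSO arrays or A2058 vemurafenib replicate 2 or 3 (0.10 to 0.13, adjusted p = 0.0547 to 0.0953). The CDK4 responses of the lines were not shown to differ (-0.088 ± 0.052, adjusted p = 0.262, with a 95% interval of -0.201 to 0.024).

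To show where the kinase genes and CDKN1B begin, the 250 bases before a RefSeq start (GRCh38.p14) are printed for CDK6, the kinase that fell, for CDK4, the kinase that did not, and for CDKN1B, the inhibitor that rose. Capitals mark matches to any of 5 motifs searched on both strands: TGANTCA for AP-1, TTTNNCGC for E2F, CCGGAAG for ETS factors, GTAAACA for FOXO factors and CACGTG for the E-box bound by MYC and related factors. The windows are chr7:92836574-92836823 on the minus strand for CDK6, the more upstream of its 2 starts, chr12:57752311-57752560 on the minus strand for CDK4 and chr12:12717118-12717367 on the plus strand for CDKN1B.
CDK6: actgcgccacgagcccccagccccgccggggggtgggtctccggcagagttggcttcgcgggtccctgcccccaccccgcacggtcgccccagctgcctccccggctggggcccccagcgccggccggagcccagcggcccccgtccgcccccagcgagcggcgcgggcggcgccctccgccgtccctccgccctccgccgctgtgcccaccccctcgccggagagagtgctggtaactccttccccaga
CDK4: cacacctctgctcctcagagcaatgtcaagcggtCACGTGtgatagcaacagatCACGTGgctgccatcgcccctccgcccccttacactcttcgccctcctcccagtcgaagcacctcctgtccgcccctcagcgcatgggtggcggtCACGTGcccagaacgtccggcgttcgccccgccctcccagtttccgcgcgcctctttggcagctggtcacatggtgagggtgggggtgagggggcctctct
CDKN1B: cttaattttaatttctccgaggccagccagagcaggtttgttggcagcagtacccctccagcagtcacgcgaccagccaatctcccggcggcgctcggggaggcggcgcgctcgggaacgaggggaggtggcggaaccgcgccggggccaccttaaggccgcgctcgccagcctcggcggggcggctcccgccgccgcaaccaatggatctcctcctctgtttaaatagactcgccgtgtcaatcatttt
The CDK4 window held CACGTG at 3 places, beginning 216, 196 and 101 bases before the start, and no other motif. Among 35114 RefSeq windows of the same length, 6.35% held that E-box at least once and 0.0797% held it 3 times or more. The cut of 3 was taken from the CDK4 window itself, 1 of 12 windows searched for 5 motifs. The share is thus a description and no measure of how rare such a find is. The CDK6 and CDKN1B windows had none of these letters, nor had the other CDK6 window; in all RefSeq windows AP-1 letters stood in 6.57%, E2F in 5.92%, ETS in 8.52% and FOXO in 2.98%. Of the 3 CCND3 windows, 1 held the ETS letters, 166 bases before its start. Among the 3 CDKN2C windows, 2 held the E-box letters, 220 and 69 bases before their starts. The CDKN2D window held the E2F letters 216 bases before the start. For RB1 the only window matched was chr13:48476200-48476449 on the plus strand, with the AP-1 letters 210 bases before that start. No other RB1 start was examined, and whether this is the main start of the gene was not tested. Which starts A375 and A2058 cells use was not tested. Windows were matched for 7 of the 10 genes; CCND1, CCND2 and CDKN1C were not matched. Matches describe the letters of these windows and were not tested against the responses.

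CDKN1B encodes p27, which holds cyclin-CDK2 complexes inactive and can be bound away from them by cyclin D complexes. Its values were 8.80, 8.87 and 8.89 with vemurafenib in A375, against 8.65, 8.55 and 8.65 with DMSO. In A2058 they were 9.07, 9.04 and 8.98 with vemurafenib, against 8.49, 8.65 and 8.53 with DMSO. All vemurafenib arrays stood above all DMSO arrays, and the gap was wider in A2058. The rise was 0.24 ± 0.052 in A375, 1.18-fold (adjusted p = 0.00248), and 0.47 ± 0.052 in A2058, 1.39-fold (adjusted p = 1.58e-05). The responses differed by -0.23 ± 0.073 (adjusted p = 0.0281), a call that ended when A375 DMSO replicate 1 or 3, A2058 vemurafenib replicate 1 or 2 or A2058 DMSO replicate 1 or 3 was left out (-0.23 to -0.20, adjusted p = 0.059 to 0.0756).

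CDKN1C encodes p57, the other KIP inhibitor measured. It had 7.70, 7.20 and 7.24 with vemurafenib in A375, against 7.48, 7.65 and 7.67 with DMSO, and replicate 1 stood above the DMSO arrays while the other vemurafenib arrays stood below them. With all arrays the difference was -0.22 ± 0.11 (adjusted p = 0.171); without A375 vemurafenib replicate 1 it was -0.38 (adjusted p = 0.00085), and with array weights -0.34 (adjusted p = 0.0018). In A2058 it had 7.81, 7.85 and 8.0 with vemurafenib, against 8.11, 8.04 and 7.93 with DMSO, which overlapped (-0.14 ± 0.11, adjusted p = 0.489).

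CDKN2D encodes p19, an INK4 inhibitor of CDK4 and CDK6. Its values ran from 7.04 to 7.40 with vemurafenib and from 7.14 to 7.18 with DMSO in A375, and from 7.07 to 7.20 and from 7.04 to 7.35 in A2058. The 4 groups overlapped, with A375 vemurafenib replicate 1 the highest array of all. Neither response was called: 0.0091 ± 0.094 in A375 (adjusted p = 0.961) and -0.014 ± 0.094 in A2058 (adjusted p = 0.956). The 95% intervals were -0.196 to 0.214 and -0.219 to 0.19. Without A375 vemurafenib replicate 1 the A375 difference was -0.10 (adjusted p = 0.322).

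RB1, the pocket protein on which this kinase pathway acts, did not pass the test in either line. It had 9.63, 9.90 and 9.90 with vemurafenib in A375, against 9.77, 9.76 and 9.72 with DMSO (0.059 ± 0.074, adjusted p = 0.635). Replicate 1 lay below those DMSO arrays and the other vemurafenib arrays above them, and without it the difference was 0.15 (adjusted p = 0.0615). In A2058 it had 8.08, 8.16 and 7.93 with vemurafenib, against 8.0, 8.02 and 8.07 with DMSO (0.026 ± 0.074, adjusted p = 0.889). The arrays of the lines lay far apart whatever the treatment, as the next comparison gives in full.

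The lines themselves were compared with and without the drug. Of the 9 genes, RB1 separated them most: A375 minus A2058 was 1.75 ± 0.074 with vemurafenib, 3.37-fold (adjusted p = 6.9e-10), and 1.72 ± 0.074 with DMSO, 3.29-fold (adjusted p = 1.03e-09). CDKN1C was lower in A375 under both conditions, at -0.51 ± 0.11 with vemurafenib (adjusted p = 0.00222) and -0.43 ± 0.11 with DMSO (adjusted p = 0.00712). In all, 5 of 9 genes were called with vemurafenib, where 46.9% of all genes were; 2 were higher in A375 (22.7% of all genes) and 3 lower (24.2%). With DMSO 5 of 9 were called, where 46.4% of all genes were; 3 were higher in A375 (23.9%) and 2 lower (22.5%). Without A375 vemurafenib replicate 1 the counts were 6 of 9 in each comparison, where 52.6% of all genes were called with vemurafenib and 50.9% with DMSO, and CCND2 passed at -0.13 with vemurafenib (adjusted p = 0.0264) and -0.11 with DMSO (adjusted p = 0.0321). No batch is given in the labels, and line and any batch of its arrays cannot be told apart.

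For the other genes the differences between the lines are given under each treatment. CCND1 was higher in A375 with vemurafenib (0.60 ± 0.057, adjusted p = 1.53e-06), whereas with DMSO the difference was 0.094 ± 0.057 (adjusted p = 0.222, but 0.14 and 0.0173 with array weights). CCND3 was lower in A375 with DMSO (-0.63 ± 0.043, adjusted p = 6.81e-08) and less so with vemurafenib (-0.14 ± 0.043, adjusted p = 0.0179), a call that needed A375 vemurafenib replicate 2 (-0.12 and 0.0632 without it) and A2058 vemurafenib replicate 3 (-0.13 and 0.0532 without it). CDK6 was higher in A375 with DMSO (0.28 ± 0.076, adjusted p = 0.00777), and the lines overlapped with vemurafenib (-0.040 ± 0.076, adjusted p = 0.741). CDK4 was slightly higher in A375 with DMSO (0.15 ± 0.0365, adjusted p = 0.00398), with 0.062 ± 0.0365 when vemurafenib was present (adjusted p = 0.201). CDKN1B was lower in A375 with vemurafenib (-0.17 ± 0.052, adjusted p = 0.0132; -0.15 and 0.0569 without A2058 vemurafenib replicate 1) and not called with DMSO (0.060 ± 0.052, adjusted p = 0.41). These differences share arrays with the vemurafenib responses above, and their change with treatment is the same quantity as the difference between the responses.

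**Figure D3:**
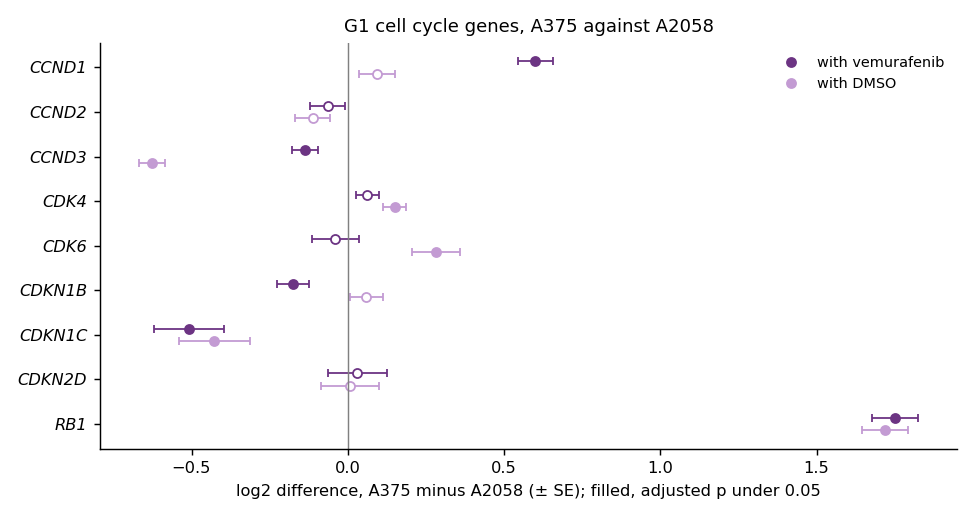
The log2 difference, A375 minus A2058 (horizontal axis, ± SE from the limma fit), is shown for each gene with vemurafenib and with DMSO, with filled points for an adjusted p under 0.05. RB1 lies at 1.75 and 1.72, far to the right of the other genes, and CCND3 lies at -0.14 with vemurafenib and -0.63 with DMSO.

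In order of level, CCND1 was highest in A375 with DMSO, then A2058 with DMSO, which overlapped, then A375 with vemurafenib and, apart from it, A2058 with vemurafenib. For CDK6 the order was A375 with DMSO, A2058 with DMSO, then A2058 and A375 with vemurafenib, and only the last pair overlapped. CCND3 was highest in A2058 with DMSO, followed by A2058 with vemurafenib, A375 with vemurafenib and A375 with DMSO, each apart from the next. CDKN1B was highest in A2058 with vemurafenib, then in A375 with vemurafenib, then in A375 and A2058 with DMSO, which overlapped.

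Around these genes stand the other parts of the G1 pathway: E cyclins, CDK2, the CDK-activating kinase, further inhibitors, E2F and DP factors, the RB relatives and cyclin turnover factors. All 25 genes of that list were measured. In A375, 14 fell and 3 rose, with a list median of -0.236, beside a median of 0.004 over all genes and the 37.0% called there. In A2058, 11 fell and 4 rose, with a median of -0.184 beside 0.006 over all genes and the 27.1% called there. Without A375 vemurafenib replicate 1, 15 fell and 5 rose in A375 (42.3% of all genes called), and 13 fell and 4 rose in A2058 (32.3%).

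In A375 the list's largest falls were those of GSK3B, a kinase that marks cyclin D1 for breakdown (-1.02 ± 0.063, adjusted p = 3.8e-08), CDK2, the partner of E cyclins (-0.71 ± 0.11, adjusted p = 0.000125), and E2F1, an activating E2F factor (-0.69 ± 0.067, adjusted p = 3.04e-06). Its largest rises were those of CDKN1A, the inhibitor p21 (0.40 ± 0.071, adjusted p = 0.00052), AMBRA1, an adaptor of the ubiquitin ligase that removes D cyclins (0.26 ± 0.047, adjusted p = 0.000611), and CKS1B, a CDK-binding subunit (0.22 ± 0.049, adjusted p = 0.00307). The CKS1B change was 0.048 (adjusted p = 0.63) when its probe sets were averaged. AMBRA1 was called higher in A2058 too (0.20 ± 0.047, adjusted p = 0.00513), and E2F1 lower (-0.20 ± 0.067, adjusted p = 0.0459). The E2F1 call in A2058 was lost with some arrays left out (adjusted p = 0.0512 to 0.182).

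In A2058 the inhibitor gene CDKN2B, an INK4 relative of CDKN2D, fell most. It averaged 6.28 ± 0.038 with vemurafenib, against 8.32 ± 0.16 with DMSO (SD, n = 3 each), a difference of -2.04 ± 0.093 (adjusted p = 4.5e-09). In A375 it averaged 5.80 ± 0.20 with vemurafenib and 5.76 ± 0.037 with DMSO (SD, n = 3 each), a difference of 0.040 ± 0.093 (adjusted p = 0.815), and the responses differed by 2.08 ± 0.13 (adjusted p = 1.03e-07). Both A375 means lay below the median level over all genes, 6.06, where a fall has less room to show. This limits the comparison of the CDKN2B responses. E2F5, an E2F factor that works with the RB relatives, changed by -1.39 ± 0.13 in A2058 (adjusted p = 2.73e-06), and CDC25A, the phosphatase that activates CDK2, by -0.61 ± 0.062 (adjusted p = 8.31e-06). Both were called lower in A375 too, E2F5 by -0.60 ± 0.13 (adjusted p = 0.00181) and CDC25A by -0.29 ± 0.062 (adjusted p = 0.0021). The list's largest rises in A2058 were those of RBL2, the RB relative p130 (0.42 ± 0.078, adjusted p = 0.0012), TFDP2, a partner of E2F factors (0.37 ± 0.069, adjusted p = 0.00119), and CDK2 (0.32 ± 0.11, adjusted p = 0.0385). In A375 the RBL2 difference was 0.055 ± 0.078 (adjusted p = 0.679), but it was called without A375 vemurafenib replicate 1 (0.16, adjusted p = 0.0363).

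CDK2, TFDP2 and CDKN1A were called in opposite directions in the lines. CDK2 averaged 8.30 ± 0.27 with vemurafenib and 9.01 ± 0.056 with DMSO in A375, and 10.86 ± 0.064 and 10.54 ± 0.12 in A2058 (SD, n = 3 each). CDKN1A averaged 7.93 ± 0.029 with vemurafenib and 7.53 ± 0.13 with DMSO in A375, and 6.85 ± 0.11 and 7.06 ± 0.075 in A2058 (SD, n = 3 each), so its A2058 difference was -0.21 ± 0.071 (adjusted p = 0.0437). In A2058 the CDK2 call was lost without any 1 of 8 arrays, all but the A375 vemurafenib arrays and A2058 DMSO replicate 3 (0.28 to 0.35, adjusted p = 0.0505 to 0.133). Leaving out A375 vemurafenib replicate 2 or 3, A375 DMSO replicate 3, A2058 vemurafenib replicate 1 or 2, or A2058 DMSO replicate 2 or 3 ended the CDKN1A call there (-0.23 to -0.15, adjusted p = 0.0525 to 0.19).

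**Figure D4:**
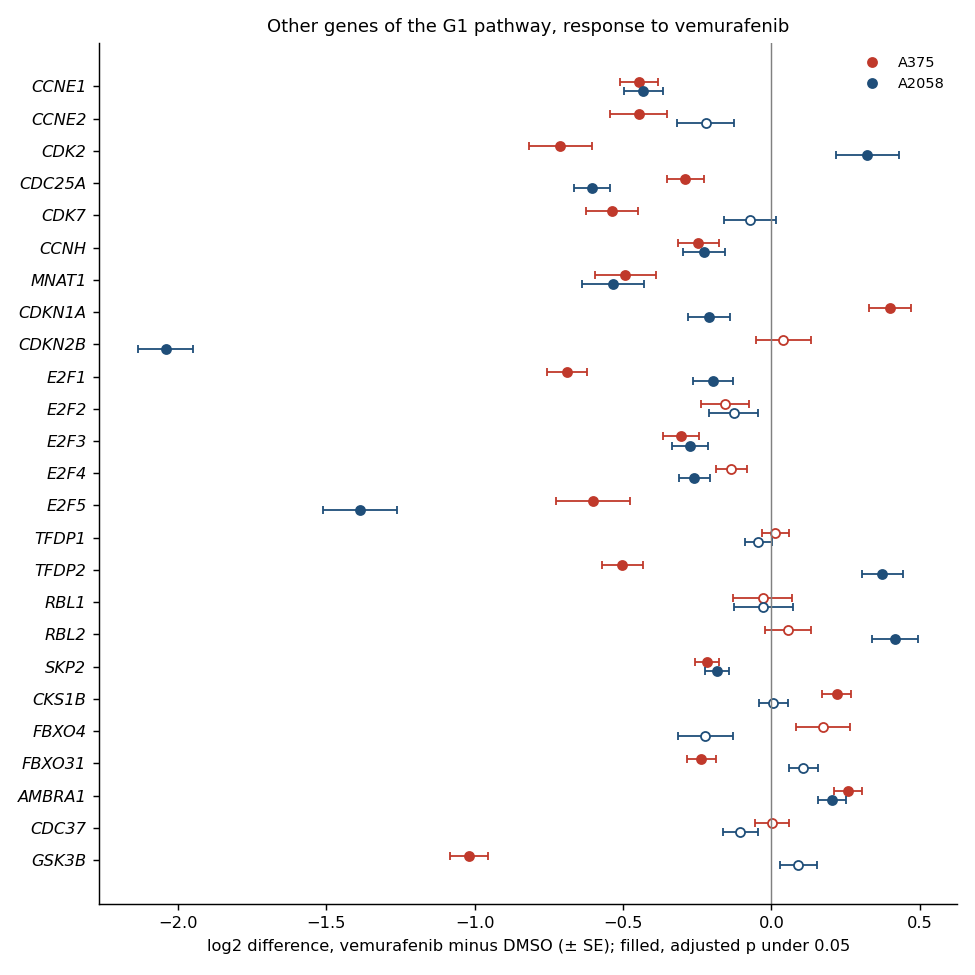
The log2 difference, vemurafenib minus DMSO (horizontal axis, ± SE from the limma fit), is shown in A375 and A2058 for the 25 other genes of the G1 pathway, with filled points for an adjusted p under 0.05. CDKN2B (-2.04) and E2F5 (-1.39) lie farthest left in A2058 and GSK3B (-1.02) in A375, and CDK2 and TFDP2 lie left of 0 in A375 and right of it in A2058.

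Genes of S phase entry that E2F factors control were counted next, since they lie downstream of RB1. The list gave 16 measured genes. In A375, 11 fell and 2 rose, with a median of -0.399, and in A2058 all 8 called genes fell, with a median of -0.186, beside the all-gene shares and medians given above. Without A375 vemurafenib replicate 1, 10 fell and 3 rose in A375 (median -0.285; 42.3% of all genes called), and 9 fell in A2058 (32.3%). The largest falls in A375 were those of ORC1, a subunit of the origin recognition complex (-0.73 ± 0.075, adjusted p = 4.68e-06), the licensing factor CDT1 (-0.72 ± 0.058, adjusted p = 5.63e-07) and the helicase subunit MCM6 (-0.72 ± 0.074, adjusted p = 5.08e-06). The rises there were those of cyclin A2, CCNA2 (0.44 ± 0.061, adjusted p = 7.19e-05), and the polymerase clamp PCNA (0.26 ± 0.051, adjusted p = 0.00115). In A2058 the loading factor CDC6 (-0.83 ± 0.13, adjusted p = 0.000303), the ribonucleotide reductase subunit RRM2 (-0.67 ± 0.083, adjusted p = 4.7e-05) and ORC1 (-0.41 ± 0.075, adjusted p = 0.000994) fell most. CDT1 was called lower there too (-0.25, adjusted p = 0.00528), as were RRM2 (-0.40, adjusted p = 0.00182) and CDC6 (-0.40, adjusted p = 0.0277) in A375. The A375 call of CDC6 was lost without A375 vemurafenib replicate 1 or any A375 DMSO array (adjusted p = 0.0508 to 0.0857).

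**Figure D5:**
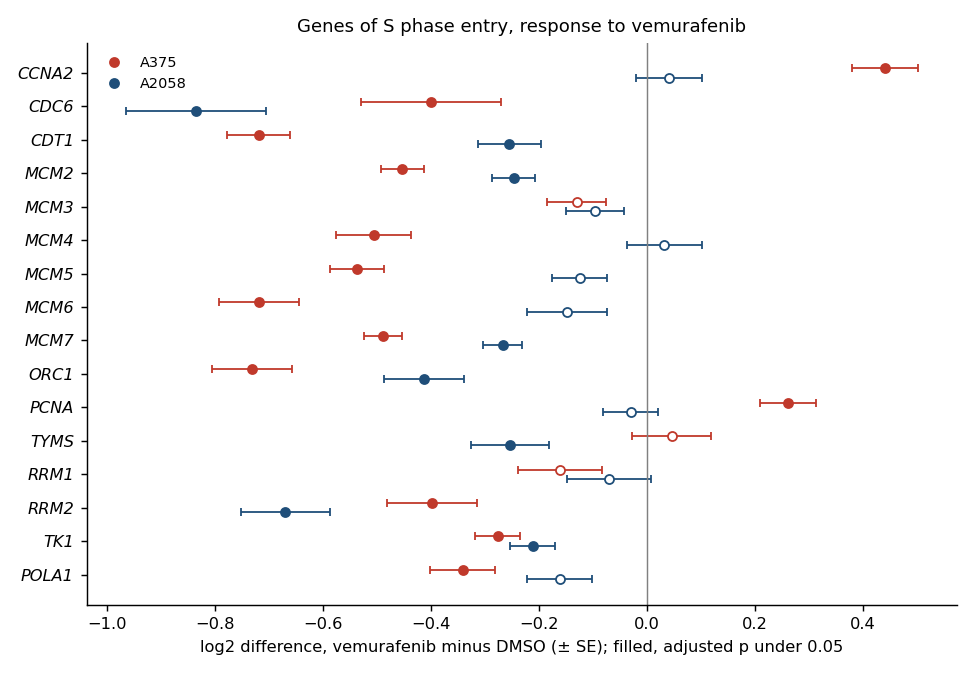
The log2 difference, vemurafenib minus DMSO (horizontal axis, ± SE from the limma fit), is shown in A375 and A2058 for the 16 measured genes of S phase entry, with filled points for an adjusted p under 0.05. Most points lie left of 0, and CCNA2 (0.44) and PCNA (0.26) lie right of it in A375.

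Over the 12 arrays, the genes whose values ran most like those of CCND1 were the muscarinic receptor gene CHRM3 (Pearson r = 0.995), HOXB2 (0.993) and the ETS factor gene ETV4 (0.993). For CDK6 they were the ectonucleotidase gene NT5E (0.992), TFB1M (0.992) and the EGFR ligand gene TGFA (0.991). For CCND3 they were GLIPR1 (0.985), ADGRG6 (0.984) and ALG14 (0.984), and for CDKN1B the kinase gene PRKG1 (0.989), PPFIA1 (0.978) and LPCAT1 (0.965). The GLIPR1 differences, vemurafenib minus DMSO, were 1.54 in A375 and -0.36 in A2058, and those of NT5E were -3.85 in A375 and -3.16 in A2058. These correlations are descriptions over 12 arrays that share 4 group means, so genes with any similar set of group means score high.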

How the data were processed

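The authors deposited a table of log2 expression values for 32321 probe sets on 12 arrays, each from RNA amplified with the Ambion WT Expression kit, per the labels' protocols. R 3.0.1 and affy are named in the submitters' processing notes; how background was corrected and probes summarised is not given in the sources used here. Values of 3.24 to 13.08 with array medians of 5.189 to 5.304 were read as log2 values normalized between arrays and used as deposited. The number of arrays limits the precision; no read depth exists for arrays.

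Names came from the platform annotation (19158 probe sets with 1 symbol, 1388 with several, 11775 with none), updated through RefSeq GRCh38.p14, which matched 19128. With several probe sets per gene, the highest mean over 12 arrays was kept, which left 18404 genes. Only probe sets with a single symbol entered. Groups came from sample titles, and no 2 arrays were identical.

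All arrays entered 1 limma 3.58.1 model with 4 group means (R 4.3.3; lmFit, eBayes; 8 residual and 3.98 prior degrees of freedom), two-sided, Benjamini-Hochberg adjusted over all genes and called under 0.05. Intervals are 95% from the moderated fit. Alternatives were another probe set rule, quantile normalization, a filter on low values, the replicate block, fewer arrays, array weights, another prior, all probe sets, and each array left out.

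The 10 genes, both lists and the markers were chosen with earlier results of these data known. Text names all 10 genes, the 3 largest called rises and falls of each list per line, genes called in opposite directions, and the 3 genes most like CCND1 and like each gene whose responses differed. No set test was run.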

Additional observations from a re-analysis of the deposited data

Results flagged for a closer look

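Of the 9 measured genes, 4 responded differently in the 2 lines by the interaction term of the limma fit, A375 minus A2058, where 29.5% of all genes did. CCND1 differed by 0.51, as it fell less in A375, and CCND3 by 0.49, as it rose in A375 and was not called in A2058. CDK6 differed by -0.32 and CDKN1B by -0.23, and these calls were lost with some arrays left out, as given above.

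Among the other genes named, the same term was called for CDKN2B (2.08), GSK3B (-1.11), CDK2 (-1.04), TFDP2 (-0.88), E2F5 (0.79), CDKN1A (0.61), MCM6 (-0.57), E2F1 (-0.49), CDT1 (-0.46), CCNA2 (0.40), RBL2 (-0.36), ORC1 (-0.32), CDC25A (0.32), PCNA (0.29) and CKS1B (0.21). The low A375 level of CDKN2B limits its term, as given above. With 1 array left out, the ORC1 call was lost without A375 DMSO replicate 1, A375 vemurafenib replicate 3, A2058 DMSO replicate 2 or 3 or A2058 vemurafenib replicate 3 (adjusted p = 0.0589 to 0.0985). The RBL2 call was lost without A375 DMSO replicate 2 or 3, A2058 DMSO replicate 2 or A2058 vemurafenib replicate 1 or 2 (0.0539 to 0.0615). The CKS1B call was lost with its probe sets averaged (0.12, adjusted p = 0.372) and without any 1 of 9 arrays (0.0567 to 0.09), all but A375 DMSO replicate 3, A375 vemurafenib replicate 1 and A2058 DMSO replicate 2. The ORC1 call was lost with array weights too (0.0689). For CDC6 and RRM2 the term was not called with all arrays (0.44 and 0.27, adjusted p = 0.102 and 0.112). Without A375 vemurafenib replicate 1 it was called for both (0.62 and 0.39, adjusted p = 0.000618 and 0.000687). The CDC6 term was also called without A2058 DMSO replicate 2 (0.54, adjusted p = 0.0412). Single outlying arrays within the groups of 3 were not looked for by Dixon's ratio.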

How the results depend on the processing

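Over the alternatives run for the 9 genes and 5 comparisons, 886 values were computed. None turned round a called direction, 26 lost a call and 7 gained one. Many of these values could not turn round. The filter, the replicate block, fewer arrays, another prior and all probe sets change the adjusted p and leave the difference as it was. So does leaving out an array outside the comparison. The other probe set rule also keeps the differences, as each of the 9 genes has 1 probe set. The number of genes with differing responses, 4, was 2 to 4 with 1 array left out: it was 2 without A375 DMSO replicate 1 or 3, A2058 DMSO replicate 1 or A2058 vemurafenib replicate 1 or 2. The CDK6 difference of responses was also lost when adjusted over all probe sets (adjusted p = 0.0705). The counts of genes called over the whole table stayed within 1.5 times the values given, under each alternative. Deviations of same-numbered vemurafenib and DMSO arrays from their group means correlated at r = -0.199 to 0.1 over 6 pairs. Other-numbered arrays of a line gave r = -0.277 to 0.262. These few correlations cannot settle whether the numbers pair the samples. With the replicate block 4 of 9 genes were called in A375, 3 of 9 in A2058 and 2 of 9 for the difference of responses. Of all 18404 genes, 6431, 4522 and 4934 were then called. The calls lost under that block were, in A2058, CDK4 (adjusted p = 0.09), CDK2 (0.0592) and CDKN1A (0.0558), and for the difference of responses CDK6 (0.0626), CDKN1B (0.0629), CDC25A (0.0607) and ORC1 (0.0583). The filter on low values removed CCND2, so it gives no count over all 9 genes. Low signal limits CCND2 most.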
